A study of Homo sapiens with 16 samples.

Results

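The 39 HOX genes of the human HOXA, HOXB, HOXC and HOXD clusters were taken from a table of 25728 gene symbols by their names, as every symbol made of HOX, a cluster letter and a paralog number. They comprised 11 HOXA, 10 HOXB, 9 HOXC and 9 HOXD genes. RNA had been sequenced in LAN-1 and Kelly, neuroblastoma cell lines with amplified MYCN, each given 2 uM GSK126 or DMSO for 2 or 5 days. GSK126 inhibits EZH2, the catalytic subunit of Polycomb repressive complex 2 (PRC2). The 8 groups were LAN-1 with GSK126, LAN-1 with DMSO, Kelly with GSK126 and Kelly with DMSO, each at day 2 and at day 5, with 2 libraries per group and 16 in all. MYCN amplification is shared by all groups, and a difference between LAN-1 and Kelly is one between these lines only. Whether the 2 libraries of a group are separate cultures is not stated, so a p-value reflects the spread between these libraries, which may be technical.

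HOX genes encode homeodomain transcription factors that give cells their position along the body axis. Within a cluster the genes lie in paralog order, and those with low numbers are used towards the head while those with high numbers are used towards the tail and in the distal limb. PRC2 places the repressive histone mark H3K27me3, and HOX clusters are among its best known targets, held silent by PRC2 and kept active by Trithorax-group proteins. Neuroblastoma arises from neural crest cells of the sympathetic lineage, whose HOX code normally records where along the trunk they formed.

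Library totals ran from 912095 to 1597429 counts in LAN-1 and from 1102922 to 1666190 in Kelly, so 3 counts, the most that a count of 0 allows at 95% confidence, corresponded to 0.284 counts per 1e6 counted reads (CPM) over the 8 LAN-1 libraries and 0.261 CPM over the 8 Kelly libraries. These limits and the intervals below cover counting error only. Group means of HAND2, a transcription factor of the sympathetic lineage, ran from 482 to 546 CPM in LAN-1 and from 597 to 950 CPM in Kelly. TH and DBH, the enzymes of noradrenaline synthesis, were near 0 in LAN-1, with group means of 0.338 to 3.53 CPM for TH and 1.18 to 4.36 CPM for DBH. Summed markers of Schwann, epithelial and endothelial cells were at most 7.59 CPM in any library, and CD3E, CDH1 and S100B were at 0 in both lines. Summed fibroblast markers were higher, at 26.1 to 64.6 CPM in LAN-1 and 45.6 to 144 CPM in Kelly. In bulk RNA, fewer cells with a transcript and less of it per cell cannot be told apart.

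On GRCh37, with GENCODE 44 lifted to that build, the HOXA genes lie on chromosome 7, and the HOXB genes span chr17:46605888-46806112, the HOXC genes chr12:54332615-54449814 and the HOXD genes chr2:176957449-177055635. RefSeq promoter windows on GRCh38.p14, from 250 bases before to 50 after a start site, were matched by symbol for 20 of the 39 genes. The 5 windows printed are those of genes that the expression results turn on. HOXD13 (chr2:176092471-176092770, plus strand) is the gene that passed the test with GSK126, HOXD12 (chr2:176099545-176099844, plus strand) lies between HOXD13 and HOXD11 (chr2:176107030-176107329, plus strand) and was almost unread, HOXC4 and HOXC5 share 1 window (chr12:54016638-54016937, plus strand) and were read in Kelly alone, and HOXA9 (chr7:27165488-27165787, minus strand) stands for the silent HOXA genes. Each is written 5′ to 3′ on the strand of its gene. Capitals mark CpG dinucleotides, the sites of DNA methylation, which are dense in many promoters that PRC2 binds.
HOXD13: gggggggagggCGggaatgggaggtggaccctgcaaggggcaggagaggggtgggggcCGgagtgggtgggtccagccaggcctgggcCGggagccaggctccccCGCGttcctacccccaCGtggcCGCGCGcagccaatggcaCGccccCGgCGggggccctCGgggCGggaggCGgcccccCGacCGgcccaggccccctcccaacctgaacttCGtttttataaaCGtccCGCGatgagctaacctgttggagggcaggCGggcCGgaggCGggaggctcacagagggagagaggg
HOXD12: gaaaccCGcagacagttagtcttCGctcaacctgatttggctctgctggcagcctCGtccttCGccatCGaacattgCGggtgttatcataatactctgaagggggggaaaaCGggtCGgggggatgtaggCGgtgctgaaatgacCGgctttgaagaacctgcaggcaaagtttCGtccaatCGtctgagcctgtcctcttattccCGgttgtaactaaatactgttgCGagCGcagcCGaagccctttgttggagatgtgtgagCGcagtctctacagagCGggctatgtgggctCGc
HOXD11: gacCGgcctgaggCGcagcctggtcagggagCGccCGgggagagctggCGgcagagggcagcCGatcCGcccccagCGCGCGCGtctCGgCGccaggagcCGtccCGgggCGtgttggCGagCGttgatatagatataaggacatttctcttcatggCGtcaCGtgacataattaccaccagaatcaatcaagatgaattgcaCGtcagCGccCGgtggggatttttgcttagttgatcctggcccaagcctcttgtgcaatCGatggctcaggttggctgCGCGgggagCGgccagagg
HOXC4 and HOXC5: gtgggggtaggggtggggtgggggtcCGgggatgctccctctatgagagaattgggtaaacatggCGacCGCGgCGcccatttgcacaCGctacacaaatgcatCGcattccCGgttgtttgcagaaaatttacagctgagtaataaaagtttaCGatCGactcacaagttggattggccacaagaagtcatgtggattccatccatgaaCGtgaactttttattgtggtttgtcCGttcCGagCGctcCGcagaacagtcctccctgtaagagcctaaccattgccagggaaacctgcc
HOXA9: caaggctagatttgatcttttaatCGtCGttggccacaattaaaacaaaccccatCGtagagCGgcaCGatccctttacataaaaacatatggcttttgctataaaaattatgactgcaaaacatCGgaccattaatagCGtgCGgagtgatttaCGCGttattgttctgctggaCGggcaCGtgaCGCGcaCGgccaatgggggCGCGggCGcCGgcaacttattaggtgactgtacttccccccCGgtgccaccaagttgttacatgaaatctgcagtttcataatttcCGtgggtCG
The HOXD13 window held 24 CpG, HOXD12 19, HOXD11 27, the shared HOXC4 and HOXC5 window 15 and HOXA9 22, against a median of 14 over all 35116 windows. The windows of the 7 matched genes with enough counts to test held 15 to 34 CpG, and those of the 8 matched genes with no count held 11 to 31, so these ranges overlapped. The letters TGATNNAT, a form of the site bound by HOX and PBX proteins together, were searched on both strands (ATNNATCA on the other) and stood in 3 of the 27 HOX windows, those of HOXA2, HOXB1 and HOXD11, and in 7.4% of all windows.

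HOX transcripts came almost wholly from HOXC and HOXD in Kelly, and from part of HOXD in LAN-1. Of the 39 genes, 18 were silent, meaning that they had 0 counts in all 16 libraries. They were 9 HOXA, 7 HOXB and 2 HOXC genes, among them HOXA5, HOXA7, HOXA9, HOXA10 and HOXA11, HOXB4 to HOXB9, and HOXC11 and HOXC12. A further 10 were read in some library but too rarely to be tested, and 11 passed the filter on low counts. Within a line, 31 of the 39 genes had no count in LAN-1 and 19 had none in Kelly. Since a gene high in 1 line alone could pass the filter, the 11 tested genes are not a neutral sample of the 39.

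The 11 tested genes were HOXC4, HOXC5, HOXC6, HOXC8, HOXC9, HOXD3, HOXD8, HOXD9, HOXD10, HOXD11 and HOXD13. Among the 10 rarely read genes, HOXD4 had 80 counts over all libraries (20 in LAN-1 and 60 in Kelly) and HOXD1 had 30, all in Kelly. HOXC10 had 9 counts, 7 of them in Kelly with GSK126 at day 5 and the rest in Kelly with GSK126 at day 2 or DMSO at day 5. HOXC13, a gene of hair and nails, had 7 counts, spread over all 4 Kelly groups. HOXA13, which patterns the hand and foot together with HOXD13, had 6 counts, all in LAN-1: 2 and 3 with GSK126 at day 2 and 1 in a DMSO library of day 5. HOXB13, known from the prostate, had 2 counts, 1 in Kelly with GSK126 at day 2 and 1 at day 5. HOXA3, HOXB2 and HOXB3 had 1 count each, all in Kelly with GSK126 at day 5, and HOXD12 had 1 in Kelly with DMSO at day 5.

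Over all 8 libraries of a line, HOXC transcripts made up 0 counts in LAN-1 (a level of up to 0.284 CPM by the 3-count limit) and 1450 counts in Kelly, or 126 CPM (exact 95% Poisson interval 119.6 to 132.6). HOXD transcripts made up 659 counts in LAN-1, or 62.3 CPM (57.6 to 67.3), and 1305 in Kelly, or 113 CPM (107 to 120). The HOXA genes together had 6 counts in LAN-1 and 1 in Kelly, and the HOXB genes 0 in LAN-1 and 4 in Kelly. All 39 genes together gave 62.9 CPM in LAN-1 and 240 CPM in Kelly.

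**Figure D1:**
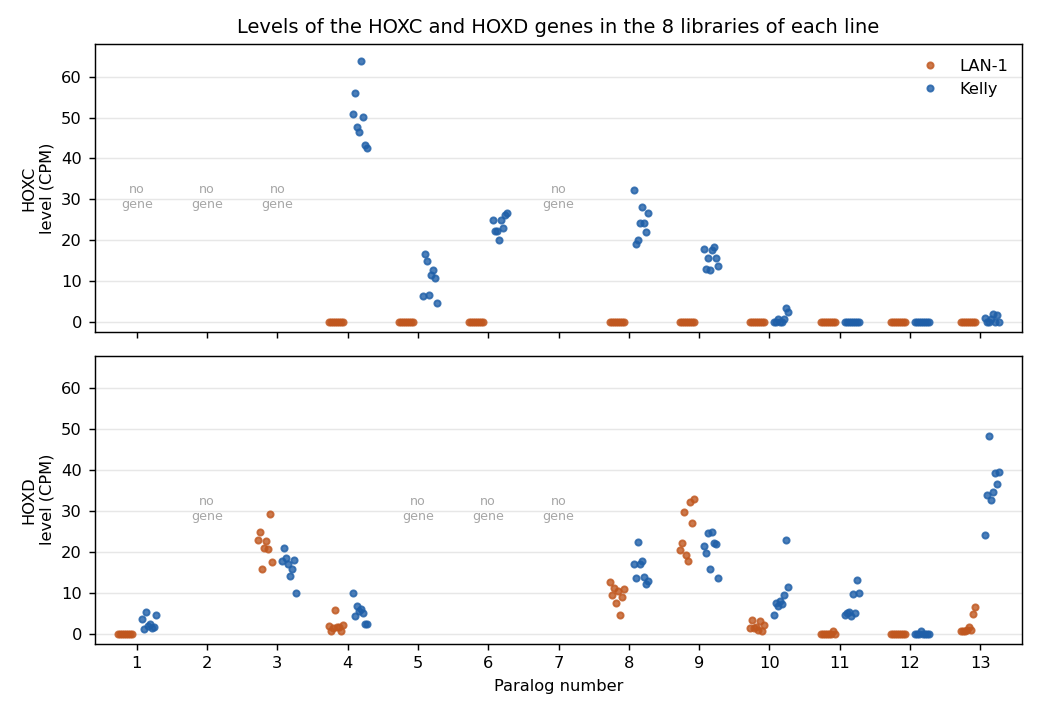
Level of each HOXC and HOXD gene in CPM (linear axis) against its paralog number, 1 panel per cluster, with 1 point per library (orange LAN-1, blue Kelly, 8 libraries each); "no gene" marks numbers that a cluster lacks. HOXC points leave 0 in Kelly only, and the HOXD3 and HOXD9 points of the lines overlap.

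The paralog groups were filled from different clusters. In group 4, HOXC4 and HOXD4 were read while HOXA4 and HOXB4 were silent. In groups 8 and 9, HOXC and HOXD members were both read in Kelly, but HOXD members alone were read in LAN-1. In group 13 each cluster had a count somewhere, with HOXD13 at 20 counts in LAN-1 and 417 in Kelly against 0 to 7 counts for the other members in either line. Group 3 was read from HOXD, apart from 1 count each of HOXA3 and HOXB3, and groups 2 and 7 held 1 count in all, that of HOXB2.

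In DMSO, LAN-1 lacked every HOXC transcript and nearly all transcripts of HOXD11 and HOXD13, while its HOXD3 and HOXD9 levels lay near those of Kelly. Of the 11 tested genes, 9 were lower in LAN-1 DMSO than in Kelly DMSO and 0 were higher (edgeR, adjusted p under 0.05, mean of both days), beside 67.7% of the 11863 tested genes called, 34.2% lower and 33.5% higher. The median log2 difference of the 11 genes was -4.42 with the 6 genes at 0 in LAN-1 set to their 3-count bound, and that of all tested genes was -0.015. The genes at or near 0 in LAN-1 passed the filter through Kelly alone, which fixed their direction in advance. The 9 calls and this median are therefore not a result about the family as a whole. HOXD13 was called with 4 against 201 counts, so the members that differ include genes that are hardly transcribed in LAN-1 as well as genes at 0.

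HOXC4 was the most abundant HOX transcript per length in Kelly DMSO. It had 0 counts in all 4 LAN-1 DMSO libraries, against 57, 91, 64 and 77 counts in the Kelly DMSO libraries, a difference of at least 95.4-fold (adjusted p = 5.83e-36). Bounds of this kind set the LAN-1 group at 3 counts over its libraries and take the Kelly count as exact. Over all 8 libraries of each line, treated ones included, the bound was 178-fold.

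The other 4 HOXC genes had the same shape. HOXC5 had 0 counts in LAN-1 DMSO and 7, 27, 20 and 11 in Kelly DMSO (at least 21.5-fold lower, adjusted p = 5.36e-13). HOXC6, which in mouse and chick marks motor neurons at limb level, had 0 counts in LAN-1 DMSO and 28, 36, 30 and 33 in Kelly DMSO (at least 41.9-fold lower, adjusted p = 5.1e-23). HOXC8, a trunk gene that acts in brachial motor neurons in mouse, had 0 in LAN-1 DMSO and 36, 31, 27 and 40 in Kelly DMSO (at least 44.3-fold lower, adjusted p = 3.34e-23). These 3 genes thus separated the lines in every library, as did HOXC9. HOXC9, which sets thoracic identity in motor neurons of mouse and chick and has been linked to differentiation of neuroblastoma cells, had 0 counts in LAN-1 DMSO and 20, 21, 21 and 21 in Kelly DMSO (at least 27.4-fold lower, adjusted p = 5.4e-17). Silence in LAN-1 covered HOXC10 to HOXC13 as well, but these were at 0 to 2 counts in Kelly DMSO, too few for a fold.

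Among the HOXD genes, LAN-1 shared HOXD3, HOXD8 and HOXD9 with Kelly and had few or no transcripts of HOXD1, HOXD11 and HOXD13. HOXD13, needed for digits, had 1 count in each of the 4 LAN-1 DMSO libraries and 27, 55, 65 and 54 in the Kelly DMSO libraries. Its log2 difference was -5.44 ± 0.37 (SE, adjusted p = 1.32e-27), a ratio of 0.0201 (95% counting interval 0.0054 to 0.0522). HOXD11, which acts in the forelimb and kidney in mouse, had 0 counts in LAN-1 DMSO and 5, 8, 7 and 7 in Kelly DMSO (at least 8.92-fold lower, adjusted p = 4.69e-07). HOXD10, a gene of lumbar motor neurons in mouse, had 2, 5, 2 and 2 counts in LAN-1 DMSO and 5, 12, 9 and 13 in Kelly DMSO. The 2 lines overlapped at 5 counts but not in CPM, where LAN-1 DMSO reached 3.38 and Kelly DMSO began at 4.47, and the log2 difference was -1.80 ± 0.48 (SE, adjusted p = 5.71e-04).

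HOXD8 had 20, 14, 16 and 9 counts in LAN-1 DMSO and 19, 22, 30 and 28 in Kelly DMSO, a log2 difference of -0.72 ± 0.25 (SE, adjusted p = 0.00667). In CPM its highest LAN-1 DMSO library, at 12.7, stayed below its lowest Kelly DMSO library, at 13.5. HOXD9 averaged 22.9 ± 4.75 CPM in LAN-1 DMSO and 20.3 ± 3.68 CPM in Kelly DMSO (SD, n = 4 each), and its difference was not called (log2 0.20 ± 0.20, SE, adjusted p = 0.374, ratio 1.15 with a 95% counting interval of 0.888 to 1.49). HOXD3, which shapes the first neck vertebrae in mouse, averaged 21.2 ± 3.88 CPM in LAN-1 DMSO and 18.6 ± 1.70 CPM in Kelly DMSO, likewise not called (log2 0.16 ± 0.20, SE, adjusted p = 0.483, ratio 1.14, 0.873 to 1.49). For both genes the DMSO library ranges of the lines overlapped, and the counting intervals did not exclude a difference of up to about their upper bound. Over all 8 libraries of each line, treated ones included, the ratio of LAN-1 to Kelly was 1.34 (1.10 to 1.63) for HOXD3. For HOXD9 it was 1.22 (1.02 to 1.46). These intervals cover counting error only, and the ratios over all libraries were not tested.

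HOXD4, a hindbrain and neck gene in mouse, and HOXD1 were too rare for the test with the filter. HOXD4 had 3, 1, 2 and 7 counts in LAN-1 DMSO and 11, 7, 9 and 9 in Kelly DMSO, a ratio of 0.364 (95% counting interval 0.177 to 0.704). HOXD1, which shapes pain-sensing neurons in mouse, had 0 counts in LAN-1 DMSO and 4, 2, 7 and 3 in Kelly DMSO, at least 5.28-fold lower. In a fit of 19130 genes without the filter, both were called lower in LAN-1 (adjusted p = 0.00463 for HOXD4 and 3.05e-04 for HOXD1).

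Levels per length put the HOX genes of each line in order. In LAN-1 DMSO, HOXD9 averaged 12.2 ± 2.54 CPM per kb and HOXD3 8.65 ± 1.58 (SD, n = 4), ahead of HOXD8 at 3.89 ± 0.852, HOXD4 at 2.16 ± 2.04, HOXD10 at 1.08 ± 0.549 and HOXD13 at 0.294 ± 0.036. In Kelly DMSO, HOXC4 led with 29.4 ± 2.48 CPM per kb, then HOXD13 with 14.4 ± 4.16, HOXC6 with 13.5 ± 1.26, HOXD9 with 10.9 ± 1.97, HOXC9 with 10.0 ± 1.67 and HOXC8 with 9.87 ± 2.46. HOXD3 (7.58 ± 0.693), HOXC5 (6.89 ± 3.36), HOXD8 (6.66 ± 1.39) and HOXD4 (5.78 ± 2.10) followed in Kelly DMSO, and HOXD10 (3.70 ± 0.840), HOXD11 (2.76 ± 0.257) and HOXD1 (1.57 ± 0.955) were lower still. HOXC13, HOXC10 and HOXD12, with 1 or 2 counts each in Kelly DMSO, lay lowest among the genes read there. HOXA13, with 1 count, lay lowest in LAN-1 DMSO at 0.0416 ± 0.0833. The ranges of mean ± SD of neighbours in these orders overlapped, apart from the following pairs. In Kelly, HOXC4 lay above HOXD13 and HOXD1 above HOXC13. In LAN-1, HOXD3 lay above HOXD8, HOXD10 above HOXD13 and HOXD13 above HOXA13. Lengths were those of the canonical GENCODE transcript, so levels between genes shift where another isoform was used.

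Some of these genes share bases with others, and the strand setting of the counting was not given in the sources used here. In GENCODE 44, HOXD10 shares 18.2% of its exon bases with HOXD11 on the same strand, and HOXD11 shares 21.4% of its own. HOXC5 shares 67.3% with overlapping HOXC transcripts, HOXC4 17.5% and HOXC6 16.1%, so the split of reads among them is uncertain. HOXD1 lies for 60.1% of its exon bases opposite antisense genes, chiefly HAGLR, HOXD8 for 24.4% opposite HOXD-AS2 and HOXD3 for 14.1% opposite HAGLR and HOXD-AS2. HOXC8, HOXD4, HOXD9 and HOXD13 share none.

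**Figure D2:**
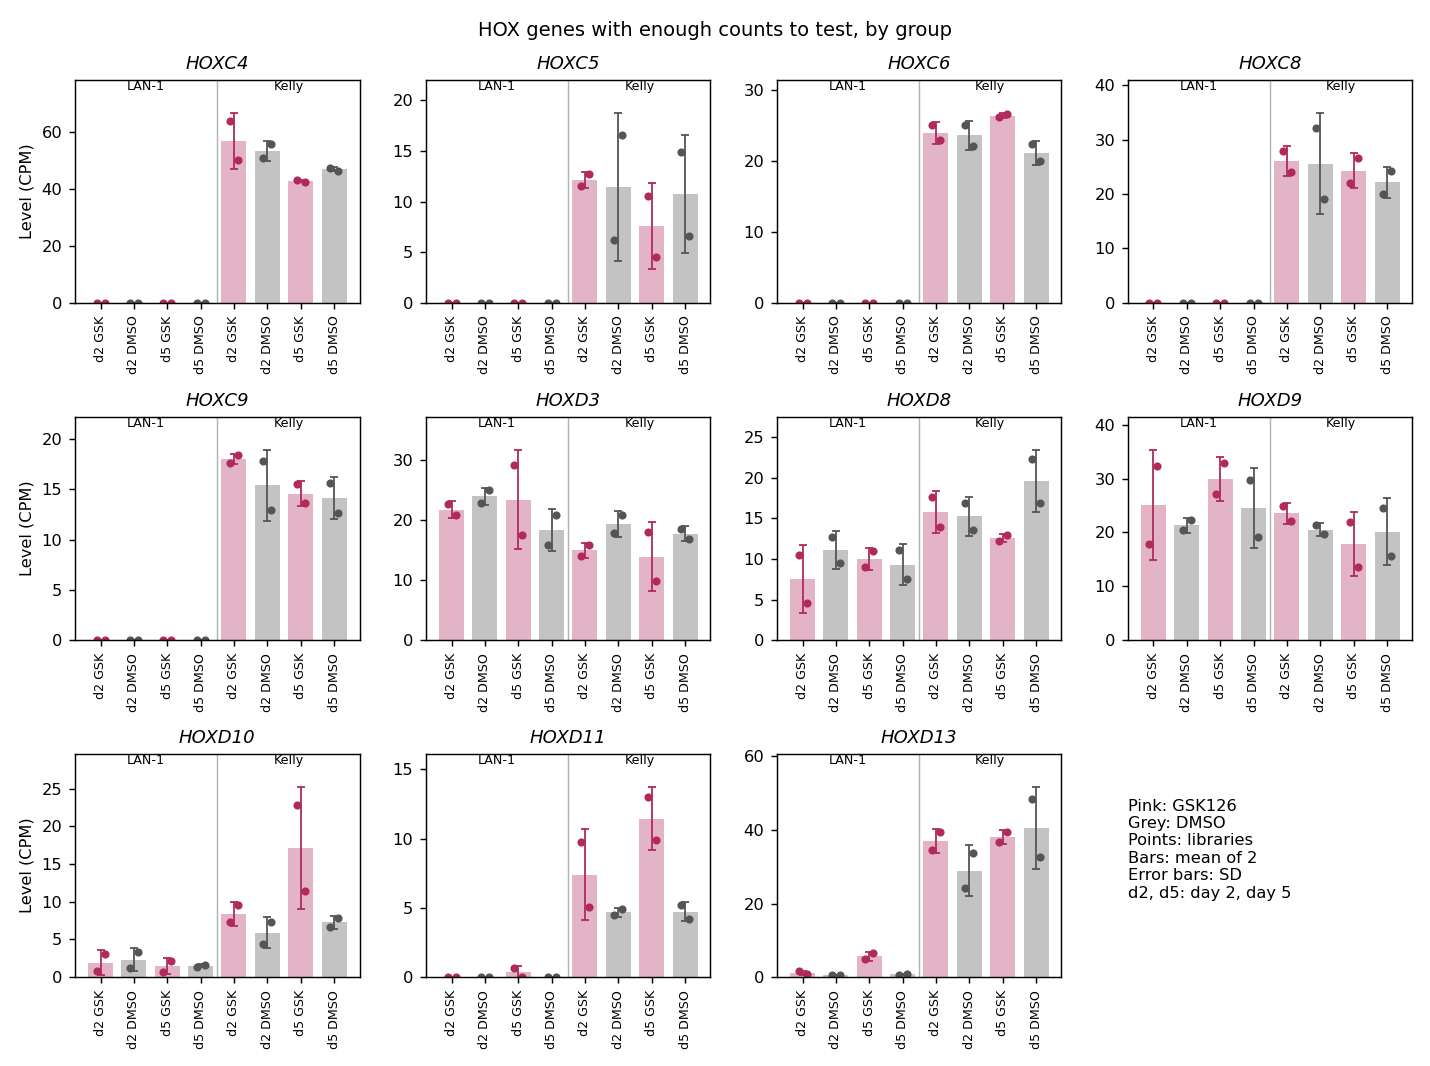
Level in CPM (linear axes from 0) of the 11 tested HOX genes in the 8 groups, LAN-1 left and Kelly right in each panel; points are libraries, bars are means of 2 and error bars are SD. The 5 HOXC genes are at 0 in every LAN-1 library, and HOXD13 in LAN-1 is highest with GSK126 at day 5, at 4.87 and 6.57 CPM.

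In LAN-1 after 5 days, HOXD13 was marginally called higher with GSK126 than with DMSO, where it was nearly absent. No other HOX gene passed the test in that comparison. HOXD13 had 7 and 6 counts in GSK126 libraries, against 1 and 1 in DMSO libraries. In CPM these were 4.87 and 6.57 with GSK126 and 0.692 and 0.835 with DMSO, so the groups did not overlap. The log2 change was 2.73 ± 0.85 (SE, edgeR adjusted p = 0.0482), a ratio of 7.30 with a wide 95% counting interval of 1.65 to 66.7. HOXD13 was the 1 HOX gene called out of 11 tested (9.09%), beside 3.66% of all tested genes called and 2.45% called higher. Of the 11, 5 had counts in both groups. The level with GSK126 remained far under that of Kelly, whose 8 libraries ran from 24.1 to 48.3 CPM.

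The call for HOXD13 rested on 15 counts and was marginal. It was made in 11 of 20 recomputed fits, and leaving out either DMSO or either GSK126 library of that comparison ended it (adjusted p = 0.297 and 0.193 without DMSO replicates 1 and 2, 0.0629 and 0.232 without GSK126 replicates 1 and 2). Leaving out 1 of 3 libraries outside the comparison also moved it just past the threshold (adjusted p = 0.0537 without replicate 1 of Kelly with GSK126 at day 5, 0.0509 without replicate 1 of LAN-1 with DMSO at day 2 and 0.0501 without replicate 2 of LAN-1 with GSK126 at day 2). Fibroblast markers (COL1A2, COL3A1, DCN, LUM and PDGFRB) were also higher in that comparison. Their summed level was 61.2 to 64.6 CPM with GSK126 and 39.5 to 47.6 CPM with DMSO. Of the 3 tested members 0 were called, beside 3.66% of all tested genes called. In LAN-1 at day 2 the sum was higher too, at 38.1 to 54.6 CPM with GSK126 and 26.1 to 34.4 CPM with DMSO. HOXD13 had 2 and 1 counts with GSK126 and 1 and 1 with DMSO at that day. The duplicates of LAN-1 with GSK126 at day 5 also differed the most along gene GC content, with a correlation of 0.315 across genes, and HOXD13 had an adjusted p of 0.062 with a GC correction. The part of either in the HOXD13 value was not tested.

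The other HOXD genes of LAN-1 were not called at day 5, and their median log2 change, HOXD13 included, was 0.24 against 0 for all genes. HOXD3 had 42 and 16 counts with GSK126 and 23 and 25 with DMSO (log2 0.43 ± 0.29, SE). HOXD9 had 39 and 30 counts with GSK126 and 43 and 23 with DMSO (log2 0.24 ± 0.27). The libraries of the 2 treatments overlapped for HOXD3 in CPM, and for HOXD9 the DMSO library with 29.8 CPM lay above the GSK126 library with 27.1. HOXD8, with 13 and 10 counts in GSK126 libraries and 16 and 9 in DMSO libraries, had a log2 change of 0.05 ± 0.43, and HOXD10, with 1 and 2 counts in GSK126 libraries and 2 and 2 in DMSO libraries, one of -0.23 ± 1.10. HOXD11 had 1 count in a GSK126 library and 0 elsewhere. All 9 HOXC genes and all 10 HOXB genes had 0 counts with GSK126 in LAN-1 at both days, as they had with DMSO.

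At day 2 in LAN-1, 0 of the tested HOX genes were called, beside 0.152% of all tested genes called. Of the tested HOX genes, 0 had an unadjusted p under 0.05. DESeq2 called 0 as well. HOXD13 had 2 and 1 counts with GSK126 and 1 and 1 with DMSO, too few for a fold. HOXA13, with 2 and 3 counts in GSK126 libraries and 0 in DMSO libraries, was at least 2.01-fold higher by the 3-count bound and was not called in the edgeR fit without the filter (unadjusted p = 0.0455, adjusted p = 1). At day 5 it had 0 counts with GSK126 and 0 and 1 with DMSO. The 5 tested genes with counts had a median log2 change of -0.14 at day 2.

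In Kelly, GSK126 left 0 of the 11 tested HOX genes called at either day. Over all tested genes, 0.185% were called at day 2 and 4.9% at day 5. At day 2, 0 of the 11 had an unadjusted p under 0.05, and their median log2 change was 0.09. At day 5, 2 had an unadjusted p under 0.05, both higher with GSK126, and the median was -0.06. The share of all tested genes under that unadjusted threshold is not given, so these 2 are not set against a background. DESeq2 called 0 at both days. HOXC genes as a cluster summed to 122 and 116 CPM with GSK126 at day 5 and 121 and 111 CPM with DMSO, and to 148 and 129 CPM with GSK126 at day 2 and 133 and 127 CPM with DMSO.

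The 2 genes were HOXD10 and HOXD11, neighbours that share exon bases. HOXD10 had 28 and 15 counts with GSK126 at day 5 and 9 and 13 with DMSO, or 22.8 and 11.4 CPM against 6.69 and 7.86 CPM. The groups did not overlap, and the log2 change was 1.20 ± 0.40 (SE, edgeR adjusted p = 0.0661). HOXD11 had 16 and 13 counts with GSK126 and 7 and 7 with DMSO, or 13.0 and 9.87 CPM against 5.21 and 4.23 CPM. Its groups were apart too, with a log2 change of 1.27 ± 0.50 (SE, edgeR adjusted p = 0.142). For HOXD10 the value turned on the GSK126 duplicates: without replicate 2 the adjusted p was 0.0336, and without replicate 1 it was 0.680. At day 2 the log2 changes were 0.44 ± 0.48 for HOXD10 and 0.65 ± 0.53 for HOXD11.

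The remaining tested genes had changes nearer to 0 in Kelly. HOXD13 had 45 and 52 counts with GSK126 at day 5 and 65 and 54 with DMSO (log2 -0.06 ± 0.21, SE), and 57 and 62 with GSK126 at day 2 and 27 and 55 with DMSO (log2 0.31 ± 0.22). HOXC4 had 53 and 56 counts with GSK126 at day 5 and 64 and 77 with DMSO (log2 -0.13 ± 0.20). The largest negative value of a tested gene at day 5 was that of HOXD8, with 15 and 17 counts with GSK126 and 30 and 28 with DMSO (log2 -0.62 ± 0.33, adjusted p = 0.336). HOXC5, HOXC6, HOXC8, HOXC9, HOXD3 and HOXD9 had log2 changes from -0.47 to 0.32 at day 5 and from -0.40 to 0.27 at day 2. Among the rare genes, HOXD4 had 3 and 3 counts with GSK126 at day 5 and 9 and 9 with DMSO, a ratio of 0.393 (95% counting interval 0.128 to 1.03), and HOXC10 had 4 and 3 with GSK126 and 1 and 0 with DMSO, a ratio of 8.25 (1.06 to 372). Without the filter their adjusted p-values were 0.418 for HOXD4 and 0.504 for HOXC10.

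Markers of several cell types also moved in Kelly at day 5. Of 7 listed sympathetic genes, all tested, 5 were called lower and 0 higher there, beside 4.9% of all tested genes called. Those that fell included HAND2, TH, DBH and MYCN. In LAN-1 at day 5, 0 of the 7 were called lower and 1 higher, beside 3.66% of all tested genes called. In Kelly at day 5 the summed fibroblast markers were 141 to 144 CPM with GSK126 and 79.2 to 81.0 CPM with DMSO. COL1A2 was at 0, and COL3A1 was the 1 called of 3 tested, beside the same 4.9%. Summed Schwann markers were 6.52 to 7.59 CPM with GSK126 and 1.81 to 2.23 CPM with DMSO, and epithelial ones 2.44 to 3.80 CPM with GSK126 and 0.744 to 1.81 CPM with DMSO, with no member of either list frequent enough to test. Their part in the HOX values was not tested.

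**Figure D3:**
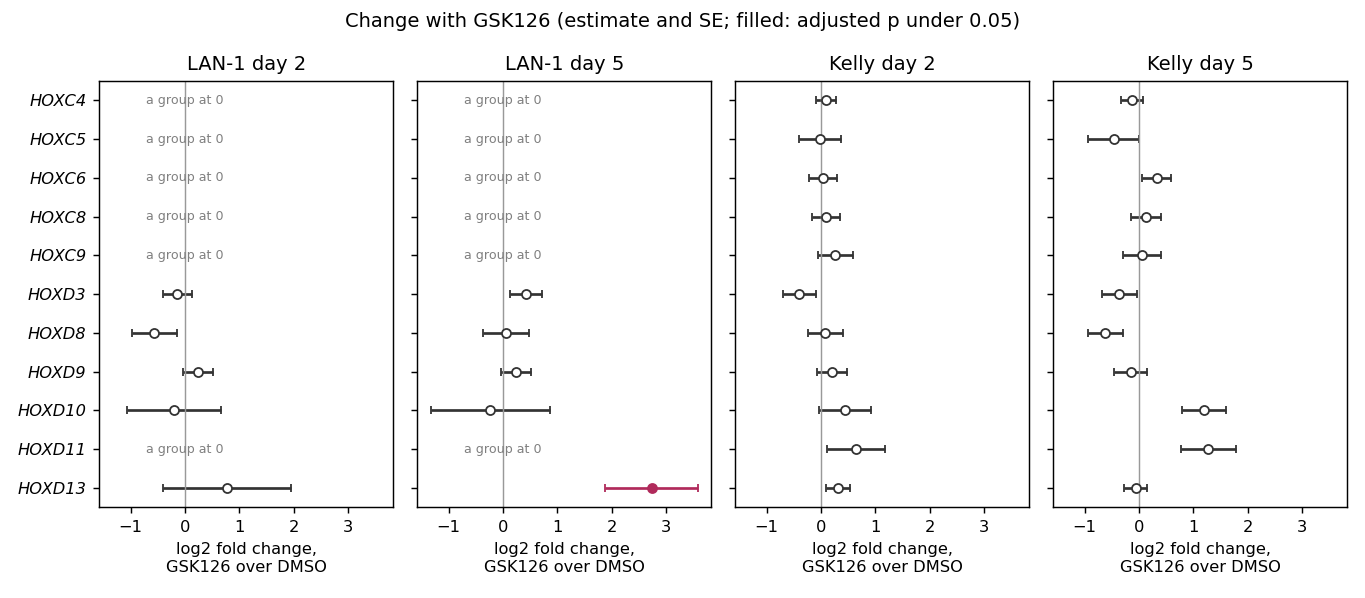
Log2 fold change of GSK126 over DMSO for the 11 tested HOX genes in each line and day (points are edgeR estimates, bars are SE, filled where adjusted p was under 0.05); text replaces genes with 0 counts in 1 or both groups. HOXD13 in LAN-1 at day 5 is the 1 filled point, at 2.73.

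Across lines and days, 0 HOX genes were called for the mean of the 4 GSK126 changes, beside 6.52% of all tested genes, and DESeq2 also called 0. HOXC genes and HOXD11 had no usable mean, since LAN-1 had no or almost no counts of them, which left 5 genes with a median log2 change of 0.13. HOXD13 had the largest, 0.94 ± 0.40 (SE, edgeR adjusted p = 0.156), the 1 gene with an unadjusted p under 0.05. The difference of the GSK126 change between LAN-1 and Kelly, taken over the mean of both days, was called for 0 HOX genes by edgeR and by DESeq2, beside 1.2% of all tested genes, and 1, HOXD13, had an unadjusted p under 0.05. For HOXD13 it was 1.63 ± 0.79 (SE, edgeR adjusted p = 0.482). At day 5 alone, a test added after HOXD13 was seen to be called in LAN-1, the difference was 2.79 ± 0.88 (SE, edgeR adjusted p = 0.0788), with 0 HOX genes called beside 1.85% of all tested genes. HOXD13 was called in LAN-1 at day 5 and not in Kelly, but in neither form did the difference between the lines pass the threshold. HOXD10, whose change was positive in Kelly, differed by -1.04 ± 0.79 (adjusted p = 0.744, mean of both days) between LAN-1 and Kelly.

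The lines differed in how their HOXD counts were spread over the genes. HOXD13 made up 3.03% of HOXD counts in LAN-1 (exact 95% binomial interval 1.86 to 4.65) and 32.0% in Kelly (29.4 to 34.6). HOXD9 made up 40.1% in LAN-1 and 18.1% in Kelly, and HOXD3 35.5% in LAN-1 and 14.6% in Kelly. HOXD8 took like shares, 15.3% in LAN-1 and 13.9% in Kelly, and HOXD12 took 0% in LAN-1 and 0.0766% in Kelly.

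Paralogs 10 to 13, a split chosen after the values were seen and given without a test, took 10.0% of HOXD counts in LAN-1 with GSK126 at day 5 (95% binomial interval 5.93 to 15.5) and 3.90% with DMSO (1.44 to 8.29). At day 2 in LAN-1 they took 5.33% with GSK126 (2.33 to 10.2) and 4.86% with DMSO (2.25 to 9.03), and the DMSO library at 6.59% lay above both GSK126 libraries, at 4.41% and 6.10%. In Kelly they took 57.3% with GSK126 at day 5 (51.4 to 63.0) and 44.1% with DMSO (38.8 to 49.4), and at day 2 170 of 369 HOXD counts with GSK126 (40.9 to 51.3%) and 112 of 287 with DMSO (33.3 to 44.9%). The day 2 intervals of GSK126 and DMSO overlapped in both lines, as did the day 5 intervals in LAN-1, and those of Kelly at day 5 did not. The intervals cover counting error only, and duplicates differed by more than that, so neither outcome serves as a test. The total HOXD level was 72.3 and 72.3 CPM with GSK126 and 60.2 and 56.0 CPM with DMSO in LAN-1 at day 5, and 129 and 104 CPM with GSK126 and 138 and 102 CPM with DMSO in Kelly at day 5.

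**Figure D4:**
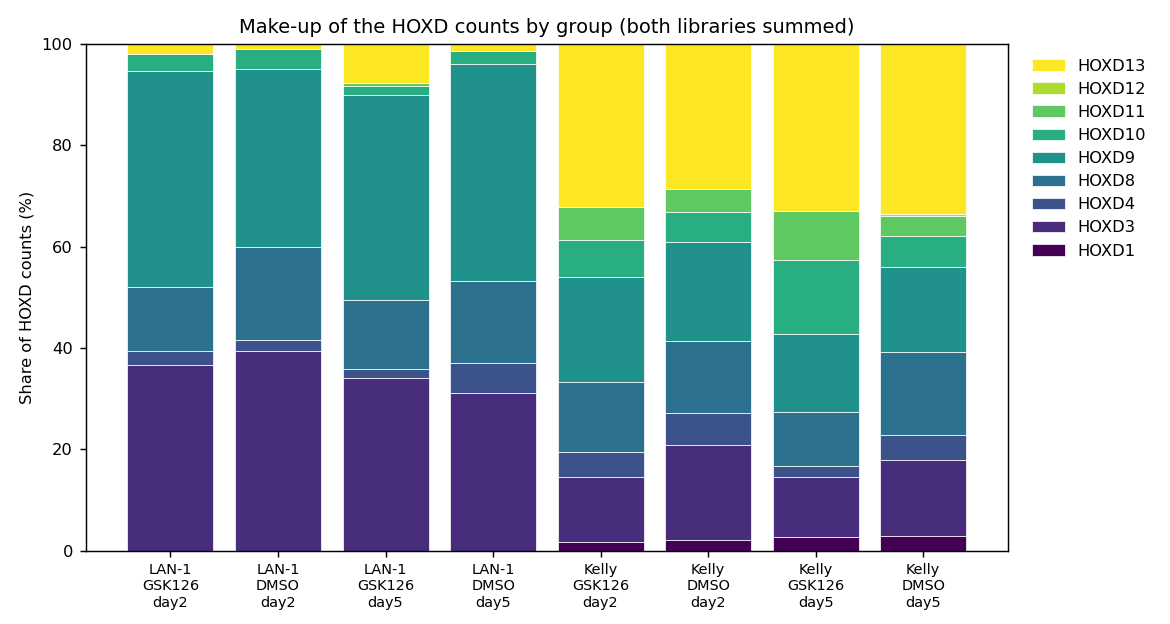
Share of HOXD counts (%, linear axis from 0 to 100) taken by each HOXD gene in the 8 groups, counts of both libraries summed. HOXD13 fills 32.0% of the Kelly counts over all groups and 3.03% of the LAN-1 counts, and HOXD3, HOXD8 and HOXD9 make up most of the LAN-1 bars.

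The other transcripts of the clusters and their neighbours were little read. Of 37 such names, 31 were in the table, 19 of these had no count in any library and 4 were tested, of which 0 were called with GSK126 in any line and day (edgeR, adjusted p under 0.05), beside 0.152% of all tested genes in LAN-1 and 0.185% in Kelly at day 2, and 3.66% in LAN-1 and 4.9% in Kelly at day 5. With so low a share called over all genes, a count of 0 among 4 is near the background. HAGLR, a noncoding RNA that starts beside HOXD1 on the opposite strand, had 38 counts in LAN-1 DMSO and 241 in Kelly DMSO (log2 -2.61 ± 0.22, SE, adjusted p = 1.1e-20), and CALCOCO1 and SMUG1, next to HOXC, were also lower in LAN-1. HAGLR with GSK126 in Kelly at day 2 had 82 and 83 counts, against 36 and 63 with DMSO, and was not called. HOTAIR, the noncoding RNA of the HOXC cluster reported to bind PRC2, had 2 counts, both in Kelly with GSK126 at day 5. SKAP2, the neighbour of HOXA, had 10 and 7 counts in Kelly with GSK126 at day 5 and 0 and 2 with DMSO.

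TALE homeodomain proteins (PBX, MEIS, PKNOX and TGIF) bind DNA together with HOX proteins, and both lines transcribed them. Of the 10 genes listed, 8 were tested, and GSK126 changed 0 of them in LAN-1 at either day (0.152% of all tested genes at day 2 and 3.66% at day 5) and in Kelly at day 2 (0.185%). In Kelly at day 5, 1 of the 8 was called, higher with GSK126, beside 4.9% of all tested genes called. The median of the 8 in that comparison was 0.028, and that of all tested genes 0.0079. MEIS3 rose in the mean over lines and days (log2 0.40 ± 0.10, adjusted p = 0.0045), the 1 called of the 8, beside 6.52% of all tested genes called. Among those that differed between the lines were PBX2 and TGIF1, higher in LAN-1 DMSO than in Kelly DMSO, and MEIS2 and MEIS3, lower there, beside 33.5% of all tested genes called higher and 34.2% called lower.

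Of 9 listed activators of HOX genes, CDX1, CDX2 and CDX4, which switch on trunk HOX genes in the embryo, had 0 counts in every library. The other 6 were tested. KDM6B, a demethylase of H3K27, rose in LAN-1 at day 5 (log2 0.55 ± 0.12, SE, adjusted p = 0.00157), and PSIP1, a chromatin reader that helps tether MLL complexes, fell (log2 -0.45 ± 0.10, adjusted p = 0.00237). KMT2A, the MLL methyltransferase that maintains HOX expression, was higher in LAN-1 DMSO than in Kelly DMSO (log2 1.28 ± 0.08, adjusted p = 1.22e-29), as were KDM6A and KDM6B, and DOT1L was lower. Between the lines, 3 of the 6 were called higher in LAN-1 DMSO and 1 lower, beside 33.5% and 34.2% of all tested genes. In LAN-1 at day 5, 1 was called higher and 1 lower, beside 3.66% of all tested genes called. The median of the 6 there was 0.12 against 0 for all tested genes. In the 3 other line and day comparisons 0 of the 6 were called. That is near the background of 0.152% in LAN-1 at day 2, and 0.185% and 4.9% in Kelly at day 2 and day 5.

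Retinoic acid switches on HOX genes in the embryo, from the low paralog numbers upward. Of 11 listed retinoid genes 6 were tested, and 5 of them (RARG, RXRA, RXRB, CRABP1 and CRABP2) were lower in LAN-1 DMSO than in Kelly DMSO, beside 34.2% of all tested genes called lower. CRABP2, a carrier that brings retinoic acid to its receptors, rose in Kelly at day 5 (55 and 62 counts with GSK126, 18 and 21 with DMSO, log2 1.81 ± 0.26, adjusted p = 6.39e-08) and in LAN-1 at day 5 (11 and 6 counts with GSK126, 1 and 0 with DMSO, ratio 19.1 with a 95% counting interval of 2.99 to 798, adjusted p = 0.00296). RXRA, a partner receptor, rose in LAN-1 at day 5 (log2 0.94 ± 0.20, adjusted p = 0.0015). HOXD1 had 0 counts in every LAN-1 library, with either treatment, and HOXD3 was not called in LAN-1 at day 5. A link between these retinoid genes and the HOX values was not tested. At day 5, 2 of the 6 retinoid genes were called higher in LAN-1 and 1 in Kelly, beside 3.66% and 4.9% of all genes called. The median of the 6 at day 5 was 0.61 in LAN-1 and -0.042 in Kelly. At day 2, 0 of them were called in either line, near the background of 0.152% in LAN-1 and 0.185% in Kelly.

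All 6 PRC2 core genes were tested, and 0 were called with GSK126 in a line and day comparison, near the background of 0.152% to 4.9% of all tested genes. In the mean over lines and days, 2 of the 6 were called, both lower, beside 6.52% of all tested genes called. They were EZH2 (log2 -0.27 ± 0.06, SE, adjusted p = 0.00153) and RBBP7 (log2 -0.22 ± 0.06, adjusted p = 0.00845). The median of the 6 was -0.17 against 0.0025 for all tested genes. Between the lines, EZH1, EZH2 and SUZ12 were lower and RBBP7 higher in LAN-1 DMSO than in Kelly DMSO. Over all tested genes, 34.2% were called lower and 33.5% higher in that comparison. The RNA of the drug's target is not a measure of its inhibition.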

How the data were processed

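The authors deposited raw counts per gene symbol in 1 table, with 1 column per library and no normalization. FastQC, TopHat2, featureCounts and GRCh37 (hg19) are named, without versions, in the submitters' processing notes; the annotation, strand setting and handling of shared reads are not given in the sources used here. Tests used edgeR 4.0.16 (R 4.3.3). The filter was filterByExpr (minimum count 10, 8 groups), which kept 11863 genes, and libraries were scaled by TMM (0.978 to 1.02). A robust quasi-likelihood fit of all 16 libraries gave each group its own mean, with 8 residual degrees of freedom (common biological coefficient of variation 5.31%), and p-values were adjusted over all tested genes by Benjamini-Hochberg, with a call at 0.05. Adjusted p-values are edgeR's except where DESeq2 is named, and an SE is the log2 change divided by the root of its F statistic. The fit was tested on simulated data. CPM is the count over the TMM-scaled total, per 1e6. Ratios carry exact 95% counting intervals; a group at 0 is set to 3 counts, and no fold is given where both groups hold 3 counts or fewer. Duplicates differed by more than counting error in every group.

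All 39 members are counted, and some of them go unnamed in the text. Genes outside the family are named from fixed lists where called in a comparison, at most 8 per list, except HOTAIR and SKAP2, the absent CDX genes and HAGLR at day 2, which were chosen after their values were seen. The members and lists were chosen with earlier results of these data known. Alternatives were DESeq2 1.42.0, relative log expression (RLE) scaling, no filter, a replicate block, a GC offset, leaving out each library and, added after seeing the data, fits of 1 line alone and the line difference at day 5 alone.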

Additional observations from a re-analysis of the deposited data

How the results depend on the processing

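The line comparison kept its 9 HOX calls or more under every alternative (9 to 10 leaving out 1 library, 11 without the filter). Over the whole table it called 8033 genes (67.7% of those tested), 7562 to 8337 leaving out 1 library and 6825 with DESeq2. Genes at or near 0 in LAN-1 passed the main filter through Kelly alone, so these HOX counts are not a result about the family as a whole. Of 209 recomputed values of the 10 called gene and comparison pairs, 200 stayed called with the same sign, and the exceptions were all HOXD13 in LAN-1 at day 5. That HOX count became 0 without the filter, with the GC offset, with DESeq2, where HOXD13 received no adjusted p, and in a fit of the LAN-1 libraries alone, whose filter removed it, and was 0 to 1 leaving out 1 library; for Kelly at day 5 it was 0 to 1. Genes called over the whole table ranged, leaving out 1 library, from 2 to 25 (Kelly day 2), 239 to 720 (Kelly day 5), 3 to 31 (LAN-1 day 2), 139 to 734 (LAN-1 day 5) and 80 to 203 (difference between lines); with DESeq2 they were 3, 163, 2, 154 and 38 in that order, and 289 for the mean. The GC offset gave 39 for LAN-1 day 2, the mean within 1 line gave 500 for Kelly and 265 for LAN-1, and the line difference of the change at day 5 alone gave 219. The cause of these shifts was not tested. Duplicate numbers did not pair the libraries (correlations of deviations -0.036, -0.033, -0.011 and 0.047); the replicate block changed no HOX call and gave 22, 528, 18, 425, 723, 124 and 7962 genes for Kelly day 2, Kelly day 5, LAN-1 day 2, LAN-1 day 5, mean, line difference of the change and line comparison.

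Of 1170 recomputed values, 42 changed sign, 36 of them leaving out 1 library, none called. For HOXC5 in Kelly at day 2 it was 0.049 with DESeq2 and 0.052 with the block. HOXD8 turned to -0.039 in LAN-1 at day 5 and -0.019 for the line difference with the GC offset, and the LAN-1 mean alone was 0.15 for HOXD3 and -0.22 for HOXD10. The 36 arose for 20 gene and comparison pairs. In Kelly at day 2 they ran from -0.10 to 0.24 for HOXC4, -0.45 to 0.94 for HOXC5, -0.068 to 0.11 for HOXC6, -0.30 to 0.45 for HOXC8 and -0.10 to 0.23 for HOXD8. In Kelly at day 5 they ran from -1.17 to 0.16 for HOXC5, -0.028 to 0.28 for HOXC8, -0.10 to 0.19 for HOXC9, -0.34 to 0.22 for HOXD13, -0.83 to 0.012 for HOXD3 and -0.52 to 0.16 for HOXD9. In LAN-1 at day 2 they ran from -1.41 to 0.60 for HOXD10 and -0.26 to 0.60 for HOXD9. In LAN-1 at day 5 they ran from -1.02 to 0.50 for HOXD10, -0.056 to 0.70 for HOXD3, -0.18 to 0.38 for HOXD8 and -0.019 to 0.61 for HOXD9. For the mean they ran from -5.8e-05 to 0.50 for HOXD10. For the line difference of the change they ran from -0.31 to 0.27 for HOXD8 and -0.019 to 0.41 for HOXD9.

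Depth limits the rest: in LAN-1, HOXD10, HOXD11 and HOXD13 had 0 to 7 counts per library, and the largest log2 change whose sign flipped was 0.47 in size (HOXC5, Kelly day 5).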
